A study of Mus musculus with 4 samples.

Results

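Narrow H3K4me2 satellites are short stretches of dimethylated lysine 4 of histone H3 that stand by themselves but close to a wider stretch of the same mark. They were found in mouse embryonic stem cells by joining the autosomal regions of the authors' H3K4me2 peak list that lay within 1 kb of each other into domains. A domain was kept as a satellite where it spanned under 1 kb, touched no region of the authors' LSD1 or IgG peak lists, and lay within 20 kb, edge to edge, of a domain of 2 kb or more, called the wider domain below. This gave 2362 satellites among 23226 autosomal domains, of which 12375 spanned under 1 kb and 3988 spanned 2 kb or more. The H3K4me2 peak calls and the missing LSD1 and IgG calls thus chose the members, so that the height of H3K4me2 in them is a description and their LSD1 level has an upper limit set by the rule.

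The study sequenced chromatin from R1 cells, an embryonic stem line of 129SV mice, grown with leukaemia inhibitory factor at passages 13 to 18. The groups were LSD1 and H3K4me2 immunoprecipitates, with precipitates of control IgG and unprecipitated DNA (Input) as controls. Each of the 4 groups held 1 library. The LSD1 library had 5833862 reads and the H3K4me2 library 6416657, while IgG had 4755619 and Input 3801082. Without replicates no comparison has a p-value, and all differences are differences of single libraries. The 95% intervals in parentheses cover counting error alone. The name LSD1 is the label's, and the catalogue number printed with it is one used for an antibody against H3K27me3.

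H3K4me2 is placed by methyltransferases of the MLL and SET1 families and marks promoters and enhancers. Promoters of active genes tend to carry wide stretches of H3K4 methylation, and enhancers shorter ones, often several around one gene. LSD1, also named KDM1A, is the demethylase that takes methyl groups off mono- and dimethylated lysine 4. In embryonic stem cells it is known at both kinds of element, as part of complexes with CoREST and with NuRD. Whether a given satellite is a promoter or an enhancer was not analysed here, since the gene table at hand belongs to another assembly than the mm9 positions of the files.

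Satellites spanned 241 to 998 bp, with a median of 655 bp, and 2344 of the 2362 consisted of a single H3K4me2 region. The median distance to the wider domain was 7878 bp. Each satellite was counted for its nearest wider domain alone, and most of the wider domains concerned had a single satellite. Of the 1694 wider domains concerned, 1173 had 1 satellite, 399 had 2 and 122 had 3 or more, with a highest number of 5. Satellites lay on both sides of 254 of them.

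Chromosome 11 held the most satellites, 275 or 2.31 per Mb, and chromosome 16 the fewest, 50. Per 100 wider domains the autosomes differed less, from 47.8 satellites on chromosome 12 to 73.6 on chromosome 13, with a median of 57.7.

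Narrow domains without an LSD1 or IgG peak were denser the closer a wider domain was. At 1 to 2 kb from a wider domain there were 37.0 per Mb of sequence (32.8 to 41.6). The zone of 2 to 5 kb had 23.1 (21.1 to 25.2), that of 5 to 10 kb 19.7 (18.2 to 21.3) and that of 10 to 20 kb 16.3 (15.3 to 17.4). The decline went on past the distance limit of satellites, with 13.5 per Mb in the zone of 20 to 50 kb, then 9.91 up to 100 kb, 6.99 up to 200 kb, 4.10 up to 500 kb and 1.60 beyond. The limit of 20 kb thus cuts through a decline that went on beyond it. Sequence in which no read can be placed was counted as sequence here, and its share by distance was not tested.

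Satellites were slightly denser around wider domains with an LSD1 peak than around those without. Up to 20 kb there were 21.2 per Mb with and 18.9 per Mb without, a ratio of 1.12 (1.03 to 1.22). In the zone of 1 to 2 kb there were 38.3 satellites per Mb (31.6 to 46.1) around wider domains with an LSD1 peak and 36.1 (30.9 to 42.0) around those without. At 10 to 20 kb the densities were 18.1 (16.4 to 20.04) around wider domains with an LSD1 peak and 15.3 (14.0 to 16.6) around those without. The ratio with over without was 1.06 (0.829 to 1.36) in the nearest zone and 1.10 (0.912 to 1.32) in the next. It was 1.06 (0.899 to 1.24) for the zone of 5 to 10 kb and 1.19 (1.04 to 1.36) for the farthest. All 4 ratios were above 1, and the last had an interval that excluded it. The intervals of densities and of their ratios treat each satellite as an independent draw. Since 399 wider domains had 2 satellites and 122 had 3 or more, these intervals may be too narrow. Whether the ratios exceed the spread between wider domains was not tested. Narrow domains past the limit gave 0.987 (0.897 to 1.09) at 20 to 50 kb and 1.13 (1.03 to 1.24) beyond 500 kb, so a higher density was not limited to satellites.

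**Figure D1:**
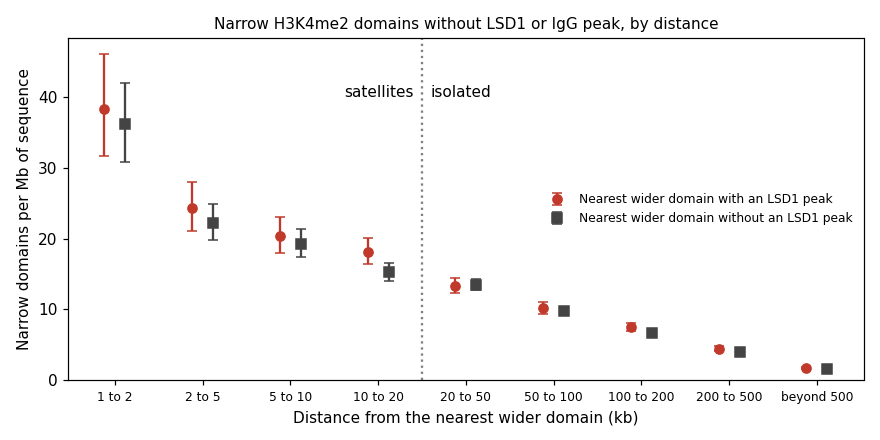
Narrow H3K4me2 domains without an LSD1 or IgG peak per Mb of autosomal sequence (vertical axis) by distance from the nearest wider domain (horizontal axis, kb), for wider domains with (circles) and without (squares) an LSD1 peak; bars are exact Poisson 95% intervals. Both series fall from above 36 per Mb at 1 to 2 kb to under 2 per Mb beyond 500 kb, and the fall goes on past the limit of 20 kb (dotted line).

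Seen from the wider domains, the share with an LSD1 peak differed little by satellite. A wider domain was taken as having a satellite only where it was the wider domain nearest to that satellite. Wider domains without one may thus still lie within 20 kb of a satellite that was nearer to another. Of wider domains with a satellite, 684 of 1694 (40.4%, 38.0 to 42.8) overlapped an LSD1 peak, against 864 of 2294 (37.7%, 35.7 to 39.7) of those without a satellite, a ratio of 1.07 (0.991 to 1.16). Wider domains with a satellite were slightly wider, with medians of 2699 and 2582 bp. Among wider domains of 2 to 3 kb the shares were 34.5% (31.6 to 37.4) with a satellite and 33.6% (31.2 to 36.1) without. At 3 to 5 kb they were 47.4% (42.9 to 52.0) with a satellite and 40.8% (36.9 to 44.9) without, and at 5 kb or more 56.0% (48.3 to 63.5) with and 62.7% (55.0 to 70.0) without. The ratio with over without a satellite was 1.03 (0.918 to 1.14), 1.16 (1.02 to 1.33) and 0.893 (0.749 to 1.06) by growing width, so it excluded 1 in the middle class alone and changed sign between classes.

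For called LSD1 peaks in narrow domains, no difference by position was detectable at this depth. Before domains with an LSD1 peak were removed, 186 of 2548 narrow domains within 20 kb of a wider domain (7.30%, 6.32 to 8.38) overlapped one, against 792 of 9827 farther away (8.06%, 7.53 to 8.62), a ratio of 0.906 (0.777 to 1.06). Near wider domains that held an LSD1 peak the share was 8.49% (6.88 to 10.3), and near those that held none it was 6.47% (5.27 to 7.83), a ratio of 1.31 (0.996 to 1.73). None of the 2548 touched an IgG peak.

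Reads at a single satellite were few. The LSD1 library had a median of 12 reads per satellite (quartiles 8 and 16, highest 36) and the H3K4me2 library 27 (21 and 35, highest 72), against 3 in IgG (2 and 5, highest 17) and 1 in Input (0 and 2, highest 8). In LSD1 only 1 satellite had no read, while 138 had none in IgG and 711 had none in Input. At this depth levels are best read over many satellites together.

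Although no LSD1 peak was called in them, satellites carried LSD1 reads well above the control. Their LSD1 level was 3.14 RPM per kb, against 1.06 in IgG, where RPM is the read count scaled to a library of 1000000 reads. LSD1 thus exceeded IgG 2.95-fold (2.88 to 3.03). The H3K4me2 level was 6.61 RPM per kb and its ratio to IgG 6.22 (6.08 to 6.37), on reads that also chose the regions. Directly compared, the LSD1 library had 0.475 (0.468 to 0.481) of the H3K4me2 level. IgG was itself above Input in satellites, 2.03-fold (1.95 to 2.11), so that LSD1 exceeded Input 5.99-fold (5.77 to 6.22).

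Taken one by one, 1681 of 2362 satellites (71.2%, 69.3 to 73.0) had an LSD1 level of at least 2-fold over IgG, with 0.5 reads added to each count. This share was not above the background. It was 72.6% in narrow domains farther than 20 kb from any wider one, 78.6% over all autosomal domains without an LSD1 or IgG peak and 82% over all autosomal domains, whose median was 20 LSD1 reads. For H3K4me2, 2347 satellites (99.4%) passed the same fold, against 99% of narrow domains farther away and 99.4% of all autosomal domains with or without the LSD1 and IgG filter, on reads that made the calls.

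The LSD1 reads formed a local maximum at satellites. In the central 200 bp of satellites more than 4 kb from their wider domain, LSD1 reached 3.78 RPM per kb where the wider domain held an LSD1 peak and 3.53 where it did not. At 2 to 3 kb from the centre the LSD1 level was 1.08 and 1.05 RPM per kb in the same order of classes. H3K4me2 reached 8.64 and 8.44 at the centre and 1.40 at 2 to 3 kb in both classes. IgG had a low maximum of 1.17 and 1.16 at the centre, against 0.753 and 0.717 outside. Input ran the other way and was lower at the centre, 0.441 and 0.460, than outside, 0.585 and 0.580.

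**Figure D2:**
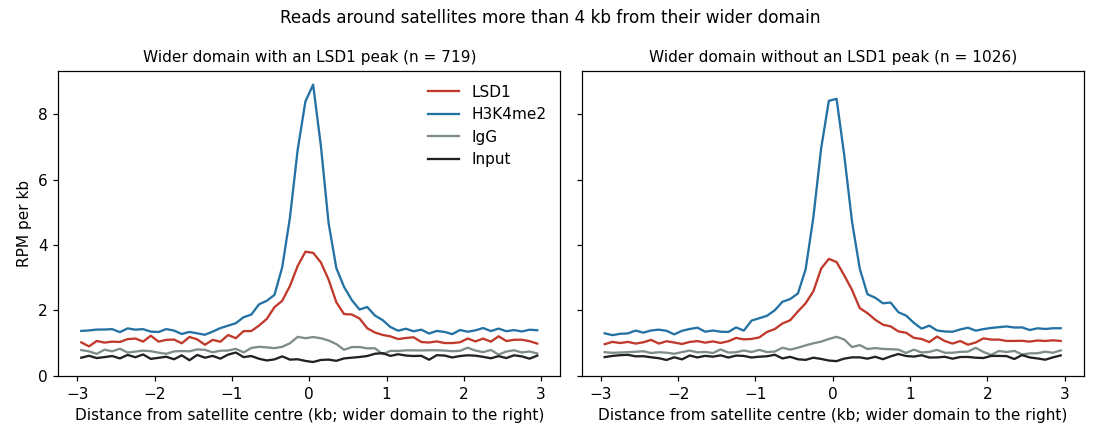
Reads in RPM per kb (vertical axis, bins of 100 bp) by distance from the satellite centre in kb (horizontal axis), turned so that the wider domain lies to the right, for the LSD1, H3K4me2, IgG and Input libraries. Left, 719 satellites whose wider domain holds an LSD1 peak; right, 1026 whose wider domain holds none; LSD1 peaks at the centre in both, at 3.78 and 3.53 RPM per kb over the central 200 bp.

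Windows of 500 bp that start 250 bp from either edge put a size on this. Over all satellites the LSD1 level was 2.25-fold (2.21 to 2.30) that of the windows, H3K4me2 3.31-fold (3.26 to 3.35) and IgG 1.34-fold (1.30 to 1.38), whereas Input in satellites was 0.854 of the windows (0.817 to 0.892). LSD1 over IgG was 2.95 in satellites and 1.75 (1.71 to 1.80) in the windows, a ratio of 1.69 (1.63 to 1.75). It stood between 1.63 and 1.76 in each of the 4 distance classes.

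The window facing the wider domain held slightly more reads than the one facing away. LSD1 was 1.45 RPM per kb towards the wider domain and 1.34 away from it, a ratio of 1.08 (1.05 to 1.12), and H3K4me2 was 2.05 and 1.95, a ratio of 1.05 (1.03 to 1.07). The asymmetry was clearest for satellites at 1 to 2 kb, with 1.25 (1.16 to 1.36) for LSD1 and 1.23 (1.15 to 1.31) for H3K4me2. At that distance the window can come close to the edge of the wider domain. At 5 to 10 kb the LSD1 ratio was 0.999 (0.947 to 1.05), while at 10 to 20 kb it was 1.09 (1.04 to 1.15), and the ratios had no even order by distance. IgG was 1.04 (0.995 to 1.08) towards over away.

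LSD1 and H3K4me2 over IgG were nearly level with distance. The 281 satellites at 1 to 2 kb had an LSD1 to IgG ratio of 2.98 (2.77 to 3.21), the 495 at 2 to 5 kb one of 3.05 (2.89 to 3.23), the 646 at 5 to 10 kb one of 2.91 (2.77 to 3.05) and the 940 at 10 to 20 kb one of 2.93 (2.82 to 3.05). The farthest class over the nearest gave 0.984 (0.905 to 1.07). For H3K4me2 the ratios to IgG were 6.46, 6.48, 6.09 and 6.13 in the same order, and the farthest class over the nearest gave 0.949 (0.878 to 1.03). Both intervals include 1, so a difference between the outer classes was not detectable at this depth. Counting error alone leaves any ratio within these bounds possible. The LSD1 level itself was a little higher in the farthest class, 3.16 against 2.998 RPM per kb at 1 to 2 kb, a ratio of 1.05 (1.01 to 1.10), while IgG gave 1.07 (0.995 to 1.16). Of the satellites 73.3% passed 2-fold for LSD1 over IgG in the nearest class, then 72.3%, 70.3% and 70.5% with growing distance.

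The LSD1 to IgG ratio of satellites was also equal with and without an LSD1 peak in the wider domain. It was 2.95 (2.84 to 3.07) in the 959 satellites whose nearest wider domain held an LSD1 peak and 2.95 (2.86 to 3.05) in the 1403 whose wider domain held none, a ratio of 1.000 (0.951 to 1.05). In the wider domains themselves, where the LSD1 call made the classes, the ratio to IgG was 3.66 (3.59 to 3.73) with and 3.22 (3.16 to 3.28) without an LSD1 peak. H3K4me2 to IgG in satellites was 6.08 with and 6.33 without, a ratio of 0.960 (0.916 to 1.01). The classes were alike in distance, with medians of 8058 bp and 7790 bp.

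On each of the 19 autosomes the comparison was made again as a measure of spread. The LSD1 to IgG ratio of satellites near wider domains with an LSD1 peak, divided by that near wider domains without, ran from 0.882 on chromosome 13 to 1.15 on chromosome 1 with a median of 0.992, and was above 1 on 8 of 19. The pooled value lay within this range, with neither class higher throughout.

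**Figure D3:**
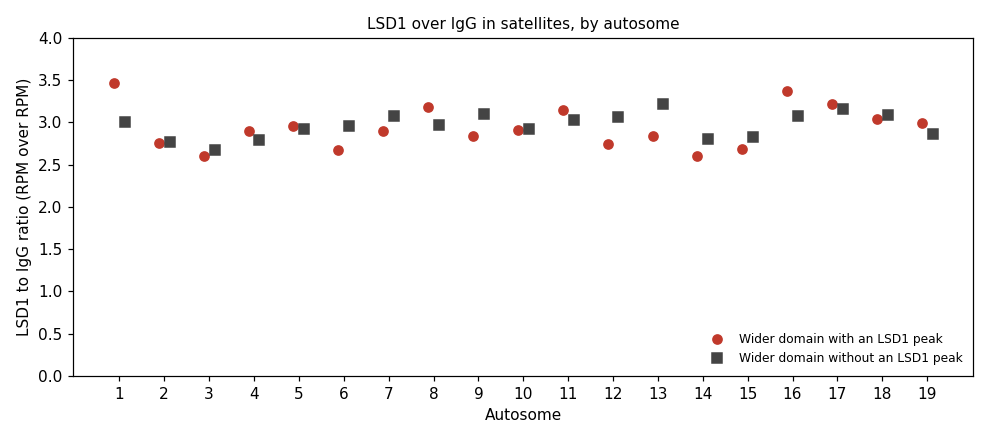
LSD1 to IgG ratio (vertical axis, RPM over RPM) of satellites on each autosome (horizontal axis), for wider domains with (circles) and without (squares) an LSD1 peak. The values run from 2.60 to 3.47 with and from 2.67 to 3.22 without an LSD1 peak, and neither class is higher throughout.

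Without the IgG control a small difference appeared. The LSD1 level was 3.24 RPM per kb in satellites near wider domains with an LSD1 peak and 3.07 near those without, a ratio of 1.05 (1.03 to 1.08), and it was above 1 on 14 of 19 autosomes. IgG gave the same ratio of 1.05 (1.01 to 1.10), H3K4me2 1.01 (0.997 to 1.03) and Input 0.990 (0.921 to 1.06). LSD1 relative to H3K4me2 was 0.486 with and 0.467 without an LSD1 peak in the wider domain, a ratio of 1.04 (1.01 to 1.07), above 1 on 15 of 19 autosomes. IgG moved by as much as LSD1, and its part in the LSD1 level was not tested.

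Split by distance, the ratio of LSD1 levels had an interval above 1 only in the classes beyond 5 kb, but the intervals of all 4 classes overlapped. The ratio of LSD1 levels with over without an LSD1 peak in the wider domain was 0.994 (0.926 to 1.07) in the nearest class and 1.02 (0.968 to 1.07) at 2 to 5 kb. At 5 to 10 kb the ratio was 1.05 (1.01 to 1.10). In the farthest class it was 1.09 (1.05 to 1.13). Within 5 kb of the wider domain a difference was thus not detectable at this depth, in classes that also held fewer satellites. Relative to IgG the 4 ratios were 0.979 (0.842 to 1.14), 0.896 (0.802 to 1.00), 1.02 (0.928 to 1.12) and 1.05 (0.968 to 1.13). At 2 to 5 kb the IgG level was 1.14-fold (1.03 to 1.26) higher near wider domains with an LSD1 peak. The trend of these ratios with distance was not tested.

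**Figure D4:**
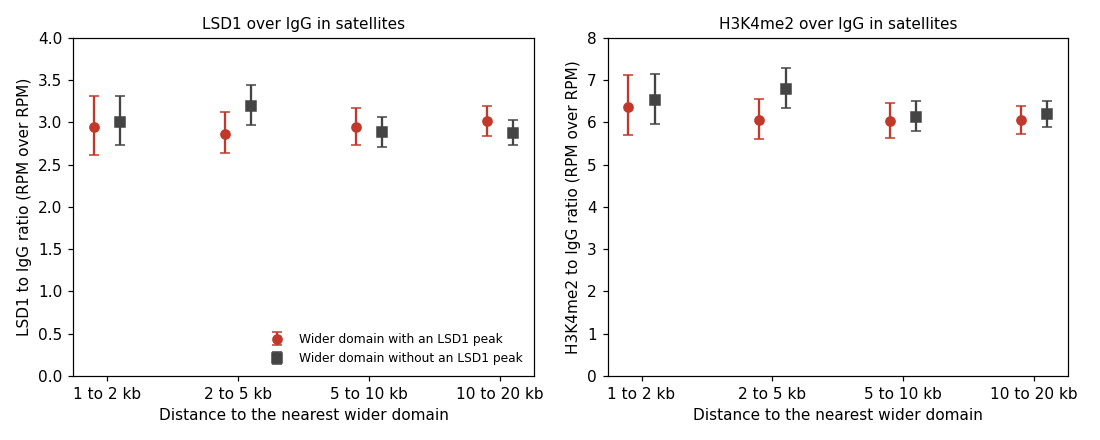
LSD1 to IgG (left) and H3K4me2 to IgG (right) ratios of satellites (vertical axes, RPM over RPM) by distance to the nearest wider domain (horizontal axis), for wider domains with (circles) and without (squares) an LSD1 peak; bars are exact binomial 95% intervals from read counts. LSD1 to IgG stays between 2.86 and 3.20 in all 8 groups.

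Distance to the nearest LSD1 peak of any kind gave a similar picture for LSD1 over IgG. In 380 satellites with an LSD1 peak at under 5 kb, LSD1 exceeded IgG 3.01-fold (2.83 to 3.20), and in 668 with none within 50 kb, the value was 3.03 (2.89 to 3.18). The 668 had lower LSD1 levels, at 2.94 RPM per kb against 3.21, a ratio of 0.916 (0.883 to 0.950), and lower IgG levels, at 0.971 against 1.07, a ratio of 0.909 (0.847 to 0.975).

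Satellites differed little from isolated narrow domains, the 9035 domains chosen by the same rule but with no wider domain within 20 kb. The LSD1 level was 3.14 RPM per kb in satellites and 3.13 in isolated domains, a ratio of 1.00 (0.990 to 1.02), and the H3K4me2 level 6.61 and 6.49, a ratio of 1.02 (1.01 to 1.03). The controls differed more. IgG was 1.06 in satellites and 1.01 in isolated domains, a ratio of 1.06 (1.03 to 1.08), and Input 0.524 and 0.437, a ratio of 1.20 (1.15 to 1.25). Input was higher in satellites on 18 of 19 autosomes.

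Both ratios to IgG were lower in satellites. LSD1 to IgG was 2.95 in satellites and 3.11 (3.07 to 3.15) in isolated domains, a ratio of 0.950 (0.923 to 0.977), and lower in satellites on 15 of 19 autosomes. H3K4me2 to IgG was 6.22 and 6.46, a ratio of 0.964 (0.939 to 0.990). The difference was not seen at every span. For the 802 satellites of 400 to 600 bp the ratio to isolated domains of that span was 0.992 (0.939 to 1.05) for LSD1 and 1.00 (0.951 to 1.06) for H3K4me2. The windows beside satellites were also higher than those beside isolated domains in every library, by 1.11-fold (1.09 to 1.13) for LSD1, 1.18-fold (1.17 to 1.20) for H3K4me2, 1.08-fold (1.05 to 1.10) for IgG and 1.16-fold (1.12 to 1.19) for Input.

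Against their own wider domains, each taken over its whole span, satellites were lower in LSD1 and nearly equal in H3K4me2. The LSD1 level was 3.14 RPM per kb in satellites and 3.58 in the 1694 wider domains, a ratio of 0.877 (0.865 to 0.888), and the LSD1 to IgG ratios were 2.95 and 3.43 (3.38 to 3.47), lower in satellites on 19 of 19 autosomes. H3K4me2 levels were 6.61 and 6.80, a ratio of 0.972 (0.964 to 0.981). IgG levels were 1.06 and 1.05. The span of a wider domain can include gaps of up to 1 kb between joined regions, while most satellites were a single region. In the 500 bp of the wider domain that face the satellite, H3K4me2 was higher than in satellites, at 7.04 RPM per kb. Its ratio to IgG there was 7.05 (6.84 to 7.27), against 6.22 in satellites. LSD1 in these windows was 3.41 RPM per kb, with a ratio to IgG of 3.42 (3.31 to 3.53). The part of the gaps in these levels was not tested. The rule kept LSD1 peaks out of satellites but not out of wider domains, so wider domains without an LSD1 peak were compared as well.

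Among loci in which neither held an LSD1 peak, the gap narrowed. LSD1 to IgG was 2.95 in 1403 satellites and 3.22 in their 1010 wider domains, a ratio of 0.919 (0.885 to 0.953), and the LSD1 level 3.07 and 3.21 RPM per kb, a ratio of 0.957 (0.940 to 0.973). H3K4me2 levels were 6.58 and 6.55, a ratio of 1.01 (0.994 to 1.02). Over Input in place of IgG, LSD1 was 5.84-fold in satellites and 5.70-fold in wider domains, a ratio of 1.02 (0.970 to 1.08), so the direction rests on the control. Domains of 1 to 2 kb without an LSD1 or IgG peak had an LSD1 to IgG ratio of 3.16 (3.13 to 3.20), between those of satellites and wider domains, but their LSD1 level of 3.37 RPM per kb and their LSD1 to Input ratio of 6.41 were above both. The 186 narrow domains near wider ones that did hold an LSD1 peak had a ratio of 4.36 (4.05 to 4.70), on reads that made the call.

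**Figure D5:**
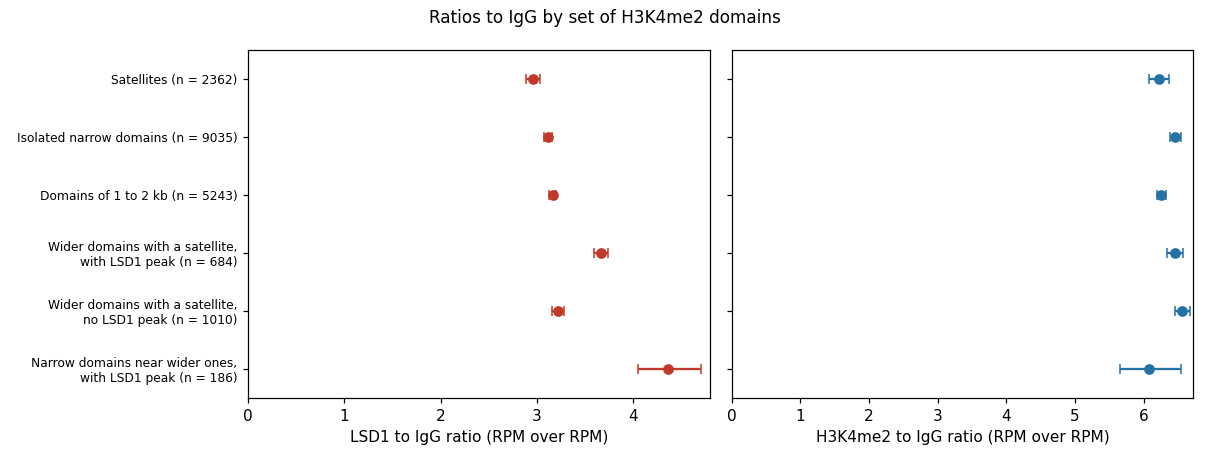
LSD1 to IgG (left) and H3K4me2 to IgG (right) ratios (horizontal axes, RPM over RPM) of satellites and of 5 other sets of autosomal H3K4me2 domains; bars are exact binomial 95% intervals from read counts. Satellites have the lowest LSD1 to IgG ratio of the 6 sets, 2.95, while H3K4me2 to IgG runs from 6.08 to 6.56. Over Input, LSD1 was 5.99-fold in satellites and 5.70-fold in their wider domains without an LSD1 peak, so this rank rests on the control. Sets with an LSD1 peak were chosen by that call.

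The 8 satellites with the most LSD1 reads held 30 to 36 of them and spanned 858 to 994 bp. They were picked by LSD1 reads, so high LSD1 to IgG ratios in all 8 follow in part from the choice. The intervals of these ratios do not allow for it. The highest lay on chromosome 19 from 7007847 to 7008817, with 36 LSD1 and 53 H3K4me2 reads, against 10 IgG and 6 Input reads, so that LSD1 over IgG was 2.93 (1.43 to 6.63). Its wider domain, 6577 bp away, held no LSD1 peak. The next, on chromosome 11 from 116135293 to 116136286, had 34 LSD1 reads and 6 IgG reads, a ratio of 4.62 (1.92 to 13.5). It lay 119 bp from an LSD1 peak, the closest of the 8, and its wider domain held 2 LSD1 peaks.

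A satellite of chromosome 1 from 72271649 to 72272630 had 30 LSD1 reads against 4 IgG reads, a ratio of 6.11 (2.15 to 23.9), 2506 bp from a wider domain without an LSD1 peak and with no LSD1 peak nearer than 486621 bp. Chromosome 7 had a satellite with 33 LSD1 reads, from 26164605 to 26165569, and one with 30, from 6140759 to 6141616, against 7 IgG reads in each. The other 3, on chromosomes 8, 10 and 13, held 30 LSD1 reads each and began at 86565749, 81026690 and 115891439. Of the 8 wider domains, 4 held an LSD1 peak.

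The 4 satellites with the most H3K4me2 reads held 11 to 25 LSD1 reads, against a median of 12 and an upper quartile of 16 over all satellites. They were picked by H3K4me2 reads, so a less extreme rank in LSD1 reads follows from the choice. On chromosome 16 from 30522402 to 30523385 there were 72 H3K4me2 reads and 25 LSD1 reads, against 7 IgG reads. The satellite of chromosome 3 from 89880707 to 89881577, 1162 bp from a wider domain of 5045 bp, had 65 H3K4me2 and 16 LSD1 reads, and that of chromosome 10 from 80803551 to 80804491 had 62 and 22, against 5 IgG reads in each. On chromosome 17 from 33943673 to 33944657, 64 H3K4me2 reads stood beside 11 LSD1 and 6 IgG reads, so that H3K4me2 to IgG was 7.91 (3.44 to 22.3) and LSD1 to IgG 1.49 (0.507 to 4.92), although the wider domain held an LSD1 peak. The intervals of single satellites are wide, and none of these ratios was set apart from the pooled value by a test.

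The 3 wider domains with the most satellites had 5 each. Around the domain of chromosome 15 from 89201723 to 89205060, which held 1 LSD1 peak, the satellites had 21, 20, 13, 7 and 5 LSD1 reads, against 13, 6, 2, 1 and 0 IgG reads in the same order. The last had no IgG read. Its LSD1 level was 1.36-fold that of a floor of 3 IgG reads, a value that leaves out the counting error of its 5 LSD1 reads. Around the domain of chromosome 14 from 122872366 to 122875976, with 1 LSD1 peak, they had 16, 15, 8, 8 and 7 LSD1 reads, against 5, 13, 5, 4 and 2 IgG reads. Around the domain of chromosome 14 from 99696944 to 99701566, without an LSD1 peak and 984115 bp from the nearest one, they had 14, 14, 7, 3 and 3 LSD1 reads, against 3, 6, 3, 3 and 2 IgG reads. Satellites of 1 wider domain thus ranged over a factor of more than 2 in LSD1 reads in all 3 cases, and they also differed in span. Counts of 3 to 21 reads carry a large counting error, and variation beyond it was not tested.

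The limits of the rule cut through continuous values. The nearest satellite, on chromosome 7 from 80683444 to 80683856, lay 1002 bp from its wider domain. The farthest, on chromosome 9 from 78330171 to 78330788, lay at 19996 bp with 6 LSD1 and 29 H3K4me2 reads, while the closest isolated domain, on chromosome 9 from 90028369 to 90029294, lay at 20004 bp with 9 and 37. The widest satellite spanned 998 bp, on chromosome 10 from 61399150 to 61400147, with 22 LSD1 and 54 H3K4me2 reads. The domain just over the width limit spanned 1000 bp, on chromosome 16 from 13754622 to 13755621, with 32 and 65.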

How the data were processed

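The authors deposited 1 line per read of 36 bases with its position and strand, on mm9 per the submitters' processing notes, and for IgG, LSD1 and H3K4me2 a list of called regions without scores. These positions have no unit of their own. The aligner, peak caller, its control and its threshold are not stated in the labels or files used here. Within each library every combination of start and strand was unique. From the deposited reads, starts were moved 100 bp along the strand and counted in regions. Library size was all reads. Ratios have exact binomial intervals, given the total of the 2 counts. Ratios of ratios carry normal intervals on the log scale from the 4 counts, as do ratios of shares. Shares have Clopper-Pearson and densities Poisson intervals, and ratios of densities exact binomial ones. Overlap meant 1 bp. Domain building and the intervals of ratios and of ratios of ratios were tested on simulated data.

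Members, lists and regions to be named were chosen with earlier results of these data known. Named regions were the 8 satellites with the most LSD1 reads, the 4 with the most H3K4me2 reads, the 3 wider domains with the most satellites, the nearest and farthest satellites, and the domains closest to the limits of 1 kb and 20 kb. Densities by zone, profiles, windows beside isolated domains, and sets by satellite span or nearest LSD1 peak were added to the planned comparisons after the files had been read. No gene was assigned and no sequence read, since no mm9 genome or annotation was used here. Scripts ran under Python 3.11.15 with scipy 1.17.1, numpy 2.4.6, pandas 2.3.3 and, for the plots, matplotlib 3.10.9.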

Additional observations from a re-analysis of the deposited data

How the results depend on the processing

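Over 16 results 84 alternative values were computed, 8 of them chosen after seeing the data (domains of 600 to 800 bp, wider domains without an LSD1 peak, other windows and unmoved starts beside satellites, and 2 for IgG to Input). Of these, 61 stayed within the interval of the main value (a count within 1.5 times) and 23 moved beyond it. None of these 16 results changed direction where its interval excluded 1, but comparisons outside them did with Input as the control. Where neither satellite nor wider domain held an LSD1 peak, the ratio of satellites to wider domains was 1.02 for LSD1 (0.919 with IgG) and 1.08 for H3K4me2 (0.965 with IgG). Leaving out satellites with 10 or more Input reads changed nothing by construction, since none had so many. Scaling to reads outside called regions also changed nothing by construction where a ratio to IgG was divided by another, because the scaling cancels. Both kinds are counted among the 61. Shares and the count of members have no direction that could change. With Input as the control, LSD1 in satellites was 5.99 and H3K4me2 12.6, the ratios by an LSD1 peak in the wider domain were 1.07 for LSD1 and 1.02 for H3K4me2, those against isolated domains 0.836 and 0.848, and those against wider domains 0.896 and 0.993. Scaled to reads outside called regions, LSD1 to IgG was 3.20, H3K4me2 to IgG 7.54 and LSD1 to H3K4me2 0.424. Medians over single regions gave 2.77 for LSD1 and 5.78 for H3K4me2 to IgG in satellites, and 0.821 and 0.909 against wider domains. In the highest of 3 classes of satellite H3K4me2 density the LSD1 ratio by the wider domain's LSD1 peak was 0.932 (0.859 to 1.01). Against isolated domains the H3K4me2 ratio was 0.929 at 600 to 800 bp, 1.00 (0.951 to 1.06) at 400 to 600 bp and 0.979 (0.948 to 1.01) with satellites up to 10 kb from the wider domain. Against wider domains it was 0.913 with regions joined within 500 bp and 0.926 with wider domains of 3 kb or more, and the LSD1 ratio was 0.919 without LSD1 peaks in wider domains. The share past 2-fold was 67.1% with a pseudocount of 1 and 28.6% past 4-fold. Both were computed for satellites alone, so they cannot be compared with the background at these settings. LSD1 over the windows beside satellites was 2.48 with windows starting 400 bp away. The cause of these moves was not tested. No paired analysis was possible because there was 1 library in each group. A median of 3 IgG reads and 1 Input read limits what a single satellite can show.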

Other observations

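Satellites with more H3K4me2 reads also had more LSD1 reads. Over 3 classes of H3K4me2 density, from lowest to highest, H3K4me2 levels were 5.56, 6.42 and 7.72 RPM per kb and LSD1 levels 2.80, 3.06 and 3.51. The LSD1 to IgG ratio was 2.68 (2.56 to 2.81), 2.90 (2.78 to 3.03) and 3.23 (3.10 to 3.37). LSD1 to Input ran the other way, with 6.57 (6.11 to 7.07), 5.85 (5.48 to 6.24) and 5.75 (5.43 to 6.09), as Input levels were 0.426, 0.524 and 0.611 RPM per kb. The direction relative to a control thus rests on which control is used. The 3 classes also differed in span, with medians of 602.5, 645.5 and 717 bp in the same order. The part of span in their Input levels was not tested. H3K4me2 reads made these classes, so its own levels are a description, and LSD1 relative to H3K4me2 is not compared between them. Over the 2362 satellites, LSD1 and H3K4me2 reads per kb had a Spearman correlation of 0.287 and a Pearson correlation of 0.290. With the control libraries the Spearman correlations were lower but not absent. They were 0.191 for H3K4me2 and Input, 0.130 for LSD1 and IgG, 0.0916 for LSD1 and Input and 0.0344 for H3K4me2 and IgG. Satellites are not replicates, and counts per satellite are low.

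Input varied with the span of the satellite more than any other library. Input levels were 0.200 RPM per kb in 109 satellites under 400 bp, 0.399 in 802 of 400 to 600 bp, 0.546 in 838 of 600 to 800 bp and 0.618 in 613 of 800 to 1000 bp. LSD1 levels were 2.80, 2.96, 3.20 and 3.23 RPM per kb and IgG levels 1.05, 1.00, 1.09 and 1.08 over the same classes. IgG to Input was therefore 5.22 in the shortest satellites and 1.74 in the longest, while LSD1 to IgG was 2.67 (2.28 to 3.15) and 3.01 (2.88 to 3.14). The Input level of isolated narrow domains was 0.150 under 400 bp and 0.518 at 800 to 1000 bp. Ratios to Input thus differed with span far more than ratios to IgG. Whether the authors' peak calling used Input, and so kept short regions with few Input reads, is not stated in the labels or files used here and was not tested. The 18 satellites made of several H3K4me2 regions had an Input level of 0.162 RPM per kb, against 0.528 in those of 1 region.

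By width of the wider domain the satellites had overlapping intervals. LSD1 to IgG was 2.98 (2.89 to 3.08) beside wider domains of 2 to 3 kb, 2.91 (2.78 to 3.04) beside those of 3 to 5 kb and 2.92 (2.70 to 3.16) beside those of 5 kb or more.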
